A study of Mus musculus with 30 samples.

Results

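The matrix metalloproteinases (MMPs) are secreted or membrane-bound zinc endopeptidases that cleave collagens, proteoglycans and other proteins of the extracellular matrix. The 10 genes described here, Mmp2, Mmp3, Mmp8, Mmp9, Mmp10, Mmp11, Mmp12, Mmp13, Mmp14 and Mmp16, were chosen by name, matched by symbol to the Ensembl gene IDs of the count table, and all 10 were found. They are 10 of 23 MMP genes looked up and belong to a table of 55416 gene IDs. RNA was sequenced from the fracture callus, at 3-dpf from tissue dissected around the fracture, of mice whose left tibia had been broken by a closed fracture without stabilization, to follow the repair response when Apex1 is deleted in limb mesenchyme. Apex1 encodes a DNA repair endonuclease that also reduces cysteines of transcription factors. The 30 samples, 1 mouse each, were taken at 3-, 6-, 10- and 14-days post-fracture (dpf). P-Apex1KO mice carried Prrx1-Cre and the conditional Apex1 allele on both chromosomes (Prrx1-Cre;Apex1 C/C). The controls, called WT, were littermates that lacked Cre or kept 1 functional copy (Prrx1-Cre;Apex1 C/+, Apex1 C/C or Apex1 C/+). The animals were 7- to 12-week-old. Prrx1-Cre acts in cells derived from the limb bud mesenchyme, such as chondrocytes, osteoblasts and periosteal cells, so blood-derived cells of a P-Apex1KO callus, osteoclasts and neutrophils among them, keep Apex1. There were 4 WT and 4 P-Apex1KO samples at 3-dpf, 5 and 3 at 6-dpf, 4 and 3 at 10-dpf, and 4 and 3 at 14-dpf. Total counts per sample ran from 18334389 to 43111491 with a median of 25573476.5, and levels are given as CPM, counts scaled to the depth of the sample, with 1 scaling over all samples.

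MMPs are made as inactive proenzymes, are activated by other proteases, including furin and plasmin, and are held back by the tissue inhibitors of metalloproteinases (TIMPs). In endochondral repair the callus is first a cartilage template, which is then degraded, invaded by vessels and replaced by bone. MMP9, abundant in osteoclasts and chondroclasts, and MMP13, made by hypertrophic chondrocytes and osteoblasts, are known for degrading this cartilage, and MMP14 cleaves collagen at the cell surface and activates pro-MMP2.

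Apex1, the deleted gene, was measured first as a check of the labels; counts over its whole length do not separate the deleted exons from the others. At 3-dpf it was 29.97, 26.4, 33.1 and 31.7 CPM in WT and 18.4, 29.0, 27.6 and 34.5 CPM in the samples labelled P-Apex1KO. These ranges overlapped, and the library labelled P-Apex1KO 3-dpf replicate 4 was above every WT library of that day (log2 fold change -0.15, SE 0.19, adjusted p = 0.927). At 6-dpf Apex1 was 20.7, 25.2, 25.3, 28.9 and 20.8 CPM in WT against 15.1, 15.2 and 15.8 CPM in P-Apex1KO, with all 3 knockout samples below all 5 controls (log2 fold change -0.67, SE 0.11, adjusted p = 0.00709). At 10-dpf the values were 23.3, 16.9, 27.1 and 27.5 CPM against 14.0, 16.8 and 15.6 CPM, again with no overlap, although WT replicate 2 lay just above P-Apex1KO replicate 2 (log2 fold change -0.65, SE 0.13, adjusted p = 0.0278). This 10-dpf call was lost with no sex term (-0.60, adjusted p = 0.0791), without WT replicate 1 (-0.58, adjusted p = 0.0828) and without P-Apex1KO replicate 1 (-0.76, adjusted p = 0.104), 2 (-0.65, adjusted p = 0.0571) or 3 (-0.60, adjusted p = 0.0742). At 14-dpf the values were 19.8, 27.2, 22.9 and 26.2 CPM against 15.1, 18.6 and 14.2 CPM. All 3 knockout samples were below all 4 controls, yet the difference did not pass the test with sex in the model (log2 fold change -0.29, SE 0.19, adjusted p = 0.367) and did without it (-0.55, adjusted p = 0.0187).

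The last contrast shows a limit of the 14-dpf comparison. All 3 P-Apex1KO samples of 14-dpf came from females and only WT replicate 1 of the 4 controls did, so, adjusted for sex, the 14-dpf differences rest on that control, and the 14-dpf fit without it could not be made. At 3-dpf the library labelled P-Apex1KO replicate 1 stood apart from the other 3: Mmp8, Mmp9 and Mmp13 were lowest in it of all 8 libraries of that day, and its skeletal muscle marker sum was the highest at 10470.2 CPM. At 10-dpf WT replicate 3 stood nearest to the P-Apex1KO samples in several of the genes below. Changes from 6- to 10-dpf were not tested, because the form of the sample names changes between these days and the labels do not say whether the libraries were prepared together.

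Scaled by the length of each gene's exons, which is needed to set levels of different genes side by side, the 10 genes together had a mean of 433 ± 30.8 CPM per kb (SD, n = 4) in WT at 3-dpf, 884 ± 92.6 (n = 5) at 6-dpf, 2355 ± 425 (n = 4) at 10-dpf and 3094 ± 290.5 (n = 4) at 14-dpf. In P-Apex1KO the sums were 444 ± 122 (n = 4), 789 ± 109.8, 1116 ± 209 and 1268 ± 496 CPM per kb (n = 3 each). Mmp2 had the highest level per kb in WT at 3-dpf, 150.1 ± 18.7, followed by Mmp9 and then by Mmp13, Mmp14 and Mmp8, neighbours that differed by less than the larger of their SDs. At 6-dpf Mmp2, at 362 ± 73.2 CPM per kb in WT, was followed by Mmp13, Mmp9, Mmp14 and Mmp8, each pair of neighbours apart by more than its spread. From 10-dpf Mmp13 led in WT, at 1318 ± 303 CPM per kb, followed by Mmp9 at 657 ± 197 and Mmp2 at 221 ± 60.2. At 14-dpf Mmp13 at 1357 ± 255 and Mmp9 at 1328 ± 75.4 CPM per kb did not differ beyond their spread in WT, and Mmp2 followed at 234 ± 12.9. In P-Apex1KO the order at 10-dpf was Mmp13 at 539 ± 112, Mmp2 at 302 ± 48.4 and Mmp9 at 145 ± 50.9 CPM per kb. At 14-dpf Mmp13, at 737 ± 403, was followed by Mmp9 and Mmp2, which did not differ beyond their spread (225 ± 81.2 and 198 ± 85.8). Mmp3, Mmp11 and Mmp16 were at most 19.9 CPM per kb in any group mean, and Mmp10 and Mmp12, the lowest pair in every group, at most 1.69.

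**Figure D1:**
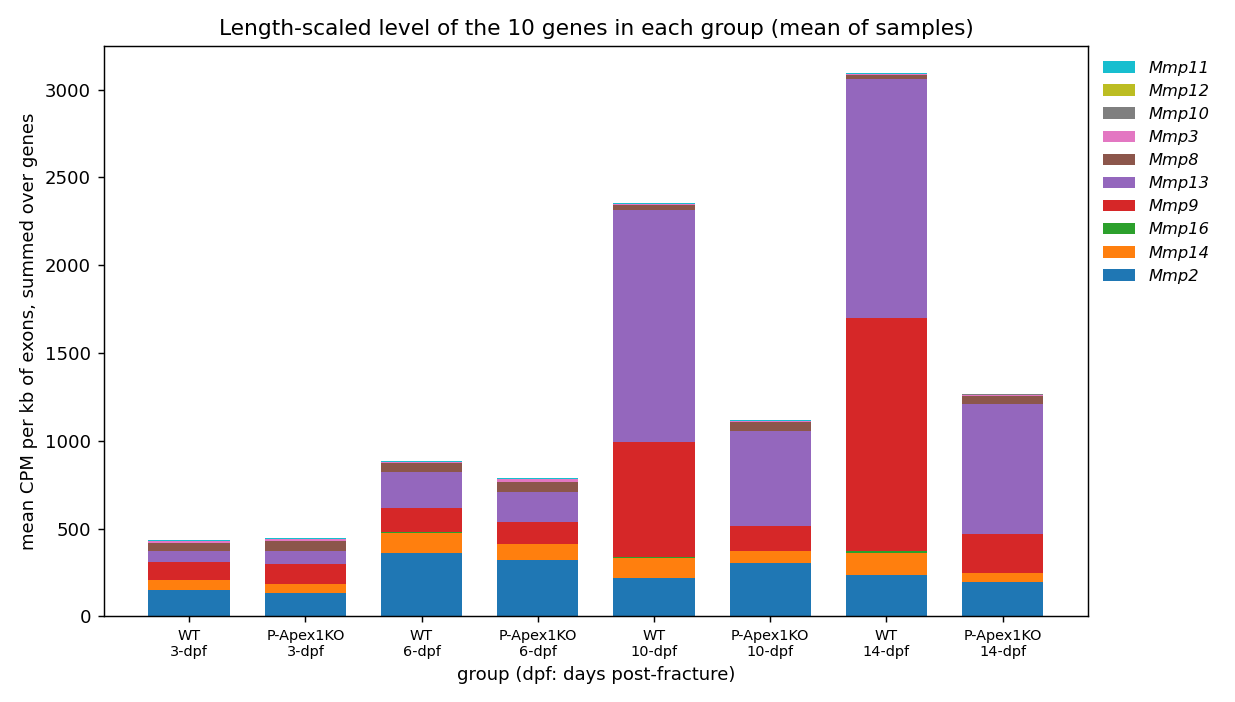
Mean level of the 10 genes in each group, in CPM per kb of exons and stacked by gene, with 3 to 5 samples in each group. The stack reaches 3094 in WT and 1268 in P-Apex1KO at 14-dpf, and most of it is Mmp13 and Mmp9.

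The first question was which of the 10 genes differed between genotypes at each time point. Each day was tested on its own with sex in the model, and a gene was called at an adjusted p under 0.05 over all genes tested. At 3-dpf 0 of the 9 genes tested were lower, beside 0% of all 19866 genes tested, and 0 were higher, beside 0% again, by edgeR; Mmp10 had too few counts to be tested. At an unadjusted p under 0.05 there were 0 of the 9 genes and 1216 of all genes, and DESeq2 called 0 of the 9 and 85 of all genes. At 6-dpf Mmp16 was lower, 1 of 10 beside 5.61% of all genes tested, and Mmp3 was higher, 1 of 10 beside 5.31%, close to the background in both directions. At 10-dpf Mmp9, Mmp10, Mmp13, Mmp14 and Mmp16 were lower in P-Apex1KO, 5 of 10 beside 3.44% of all genes tested. None of the 10 was higher by edgeR, beside 3.01%, with 2 at an unadjusted p under 0.05 (Mmp2 and Mmp8) and 1 by DESeq2 (Mmp8). In both directions 7 of 10 had an unadjusted p under 0.05, beside 24.3% of all genes tested. At 14-dpf Mmp9, Mmp11, Mmp14 and Mmp16 were lower, 4 of 10 beside 7.04%, and Mmp8 was higher, 1 of 10 beside 4.28%. These 14-dpf shares depend on the sex term. With no sex term, or with all 30 samples in 1 model, many more of all genes were called, as given under the processing. Mmp3 was then called as higher too (1.37, adjusted p = 0.0144 with no sex term). With all 30 samples in 1 model Mmp12 was also called as higher, and Mmp8 was not called. The median log2 fold change of the genes tested was 0.01 at 3-dpf, -0.14 at 6-dpf, -0.44 at 10-dpf and -0.45 at 14-dpf, where that of all genes tested was -0.0028, 0.01, -0.0031 and 0.04.

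**Figure D2:**
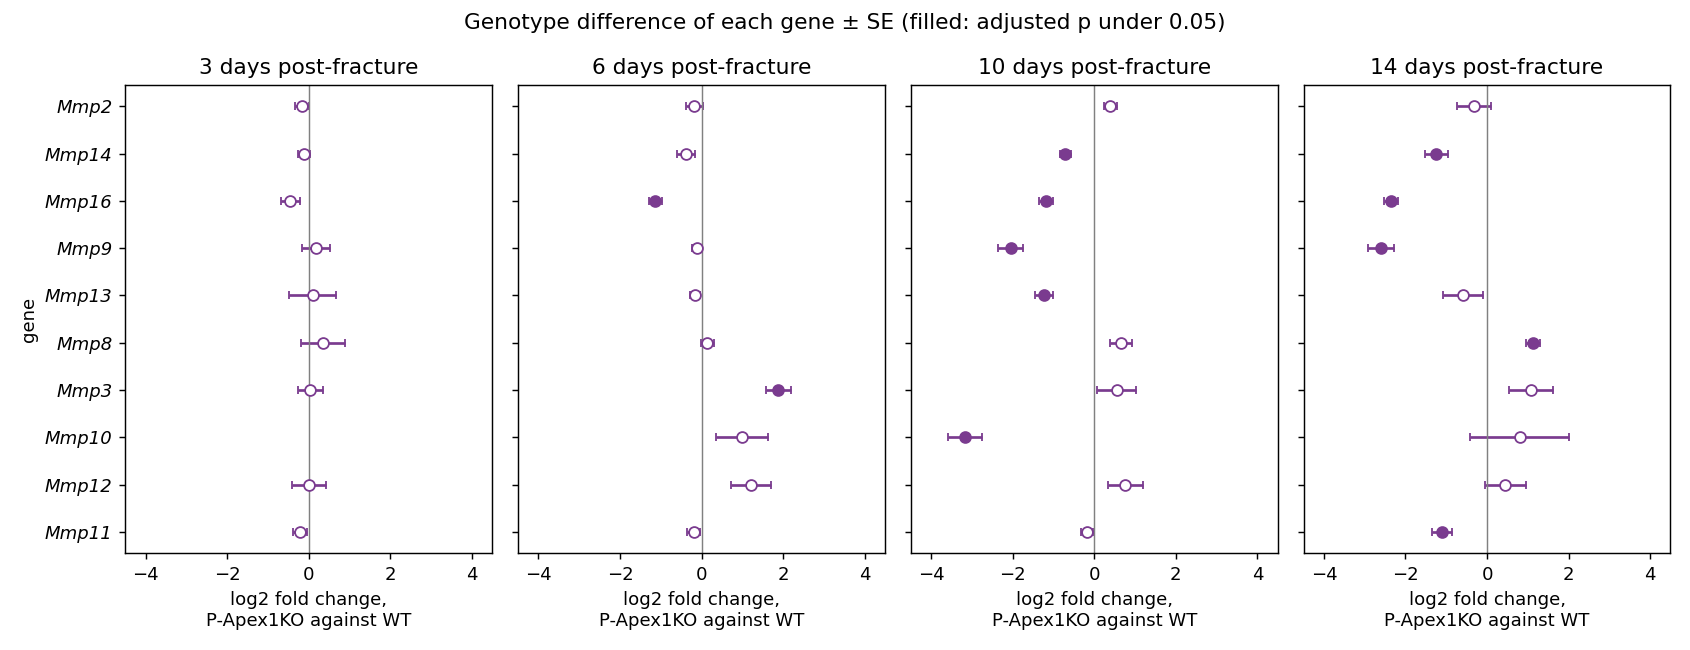
Log2 fold change of each gene in P-Apex1KO against WT at each time point, with its SE as bars and filled symbols for an adjusted p under 0.05. Filled symbols run from -3.17 for Mmp10 at 10-dpf to 1.88 for Mmp3 at 6-dpf, and none is filled at 3-dpf. Scaling to library size alone turns some open symbols to the other side of 0. These are Mmp2, Mmp9 and Mmp13 at 6-dpf and Mmp3 and Mmp12 at 3-dpf.

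The counts rested on few animals. At 10-dpf the count of 5 became 0 without P-Apex1KO replicate 1, when all genes tested gave 42 calls, and 1 (Mmp10) without WT replicate 1 or without WT replicate 2, with 113 and 185 calls over all genes. Without P-Apex1KO replicate 3 there were 4 calls, Mmp9, Mmp10 and Mmp16 lower and Mmp8 higher, beside 638 over all genes. Without WT replicate 3 there were 7, the same 5 genes lower and Mmp2 and Mmp3 higher, beside 1387. With all samples 1221 genes were called at 10-dpf and 2289 at 14-dpf. At 14-dpf there were 3 calls, Mmp8, Mmp9 and Mmp16, without WT replicate 3 or without WT replicate 4, beside 1353 and 1277 over all genes. At 6-dpf only Mmp16 was called without P-Apex1KO replicate 1, beside 995 in place of 2212. Scaling to library size alone moved the median over all genes tested by 0.19 at 6-dpf and 0.27 at 14-dpf. The share of higher genes among all calls was then 77.4% in place of 48.6% at 6-dpf, 64.7% in place of 46.7% at 10-dpf and 71% in place of 37.8% at 14-dpf. Among the 10 genes this scaling ended 1 genotype call, that of Mmp11 at 14-dpf, and turned the uncalled differences of Mmp2, Mmp9 and Mmp13 at 6-dpf from negative to 0.0086, 0.0719 and 0.0305. It also turned those of Mmp3 and Mmp12 at 3-dpf from positive to -0.0126 and -0.0409.

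Among the gelatinases, which digest denatured collagen and basement membrane collagen, Mmp9 (ENSMUSG00000017737, chr2:164780439-164797771, plus strand, build GRCm39) had the largest difference in CPM. At 10-dpf the values were 3072, 2922, 1469.96 and 2263 CPM in WT against 535, 725 and 348 CPM in P-Apex1KO. At 14-dpf the values were 5107, 4806, 4579 and 5183 CPM in WT against 1134, 826 and 533 CPM in P-Apex1KO. Every knockout sample of both days was below every control of its day, and the 10-dpf control nearest to the knockouts was WT replicate 3. Mmp9 was 4.15-fold lower at 10-dpf (log2 fold change -2.05, SE 0.31, adjusted p = 0.0173) and 6.05-fold lower at 14-dpf (log2 fold change -2.60, SE 0.31, adjusted p = 0.00308), each in 3 of 3 samples. The 10-dpf call was lost without P-Apex1KO replicate 1 (-1.80, adjusted p = 0.123), without WT replicate 1 (-2.00, adjusted p = 0.0612), without WT replicate 2 (-2.03, adjusted p = 0.0551) and with no filter on low counts (-2.05, adjusted p = 0.0758). At 3-dpf Mmp9 was 374, 353, 358 and 367 CPM in WT and 178, 512, 383 and 598 CPM in the samples labelled P-Apex1KO, and at 6-dpf 501, 472, 498, 570.2 and 531 against 543, 397 and 429.9 CPM. The genotypes overlapped on both early days, with the knockout-labelled samples of 3-dpf on both sides of the controls, and neither difference passed the test (log2 fold change 0.17 and -0.12, adjusted p = 0.958 and 0.591). Without P-Apex1KO replicate 4 the 3-dpf difference of Mmp9 was -0.0220.

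Osteoclast marker transcripts moved with Mmp9. For this and each list below, the shares of all genes tested that were called are those given above for each day. Of 12 markers, with Ctsk (cathepsin K) the most abundant in most samples of these days, 5 were lower in P-Apex1KO at 10-dpf and 11 at 14-dpf, where the remaining marker, Car2, was higher; at 6-dpf 1 was higher, Tnfrsf11a. The Tnfrsf11a call was lost without WT replicate 2 (0.45, adjusted p = 0.108), WT replicate 4 (0.57, adjusted p = 0.0552), WT replicate 5 (0.52, adjusted p = 0.0532), P-Apex1KO replicate 1 (0.46, adjusted p = 0.198) or P-Apex1KO replicate 3 (0.47, adjusted p = 0.0749) and with all 30 samples in 1 model (0.50, adjusted p = 0.159). Their summed level at 10-dpf was 5676, 3971, 2522 and 4288 CPM in WT and 1792, 1975 and 1527 CPM in P-Apex1KO. The 14-dpf values were 10179, 9474, 8953 and 9759 CPM in WT and 2951, 2448 and 1972 CPM in P-Apex1KO. The genotypes did not overlap on either day, and WT replicate 3 had again the lowest control value at 10-dpf. Ctsk had a log2 fold change of -1.50 at 10-dpf and -2.40 at 14-dpf, Acp5 (tartrate-resistant acid phosphatase) of -1.64 and -2.68, and Ocstamp, needed for osteoclast fusion, of -2.35 and -2.52. The 10-dpf count of 5 was 0 without P-Apex1KO replicate 1, 1 without WT replicate 1, WT replicate 2 or P-Apex1KO replicate 3, 2 lower and 1 higher without WT replicate 4, and 10 without WT replicate 3. At 10-dpf Ctsk was not called without WT replicate 1 (-1.35, adjusted p = 0.0690), WT replicate 2 (-1.54, adjusted p = 0.0839), WT replicate 4 (-1.37, adjusted p = 0.112), P-Apex1KO replicate 1 (-1.19, adjusted p = 0.218) or P-Apex1KO replicate 3 (-1.46, adjusted p = 0.0895), and Acp5 was not called without WT replicate 1 (-1.50, adjusted p = 0.0666), WT replicate 2 (-1.69, adjusted p = 0.0636), WT replicate 4 (-1.45, adjusted p = 0.0740), P-Apex1KO replicate 1 (-1.45, adjusted p = 0.194) or P-Apex1KO replicate 3 (-1.51, adjusted p = 0.0634). Ocstamp was not called without P-Apex1KO replicate 1 (-2.06, adjusted p = 0.0957) at 10-dpf and without P-Apex1KO replicate 2 (-2.44, adjusted p = 0.0934) at 14-dpf. With no filter on low counts Ctsk (-1.50, adjusted p = 0.155) and Acp5 (-1.63, adjusted p = 0.112) were not called at 10-dpf, nor Ocstamp at 14-dpf (-2.51, adjusted p = 0.121). The 6-dpf count of 1 was 0 without WT replicate 2, 4 or 5 or P-Apex1KO replicate 1 or 3, and 2 without P-Apex1KO replicate 2. None of the 12 markers was at 0 in all samples of a group. In bulk samples fewer cells of a type and less RNA per cell cannot be told apart, and the part of osteoclast numbers in the Mmp9 difference was not tested.

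**Figure D3:**
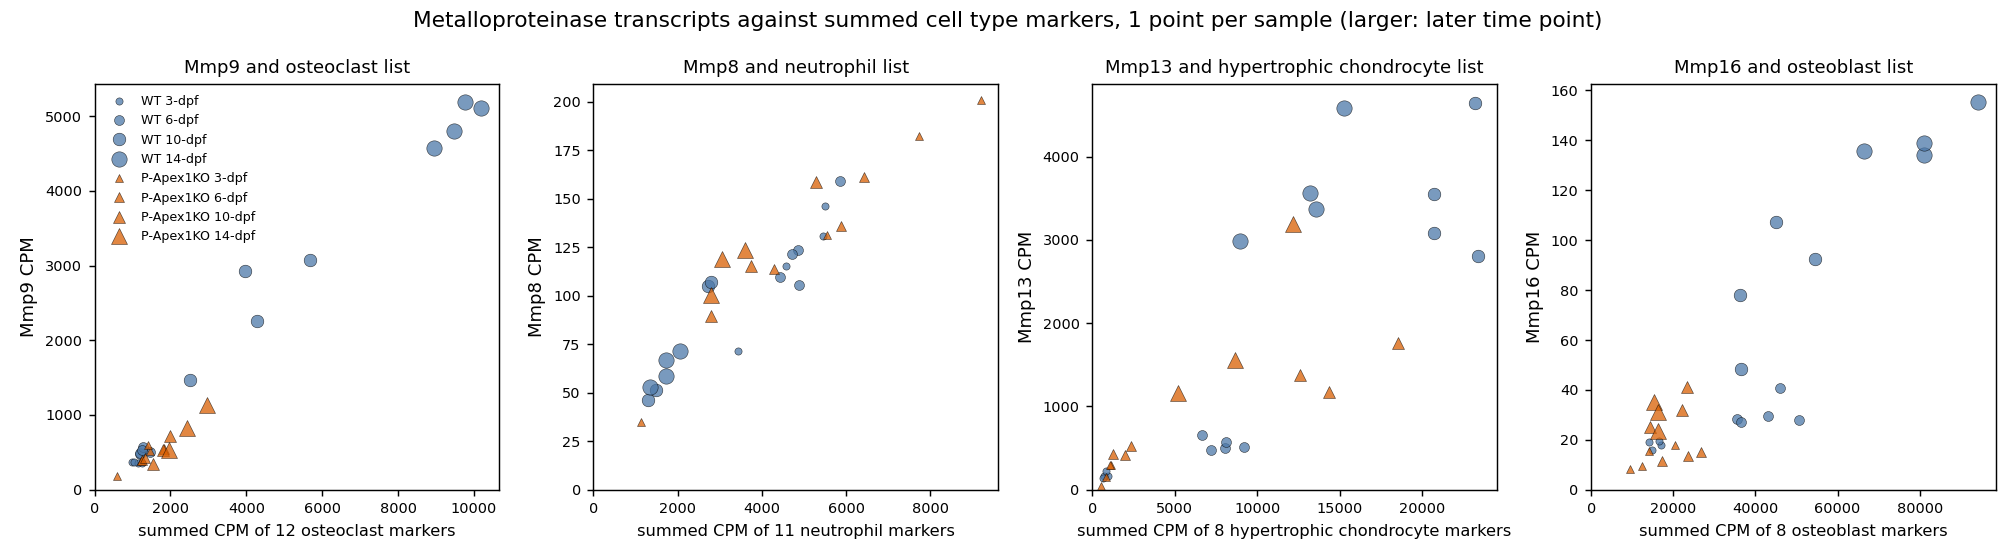
CPM of Mmp9, Mmp8, Mmp13 and Mmp16 in each of the 30 samples against the summed CPM of genes listed as osteoclast, neutrophil, hypertrophic chondrocyte and osteoblast markers, with circles for WT, triangles for P-Apex1KO and larger symbols for later days. The 4 WT samples of 14-dpf lie highest for Mmp9, between 4579 and 5183 CPM at osteoclast sums of 8953 to 10179 CPM, and the P-Apex1KO samples of that day lie at 533 to 1134 CPM and sums of 1972 to 2951 CPM. The osteoblast sum is almost all Col1a1.

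The other gelatinase, Mmp2 (ENSMUSG00000031740, chr8:93553902-93580049, plus strand), a product of fibroblasts and other mesenchymal cells, did not pass the genotype test on any day. The 10-dpf values were 626, 722, 1093 and 677 CPM in WT and 871, 1187 and 1141 CPM in P-Apex1KO. All knockout samples were above the control mean, 2 of 3 were above all controls, and WT replicate 3 lay among the knockouts (log2 fold change 0.40, SE 0.17, adjusted p = 0.188). Without WT replicate 3 it was called as higher (0.59, adjusted p = 0.0496). At 14-dpf the knockout samples spread on both sides of the controls, 705, 393 and 999 CPM against 882, 851, 789.5 and 791 CPM (log2 fold change -0.31, SE 0.42, adjusted p = 0.677). At 3- and 6-dpf the log2 fold changes were -0.17 and -0.17.

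The collagenases cleave the triple helix of fibrillar collagens. Mmp13 (ENSMUSG00000050578, chr9:7272514-7283331, plus strand) is the collagenase of hypertrophic cartilage and bone. At 10-dpf it was 4647, 3553, 2804 and 3088 CPM in WT against 1175, 1764 and 1380.3 CPM in P-Apex1KO. At 14-dpf it was 2992, 3373, 3562 and 4587 CPM in WT against 3193, 1162 and 1558 CPM in P-Apex1KO. The genotypes did not overlap at 10-dpf, whereas at 14-dpf P-Apex1KO replicate 1 lay within the control range and the other 2 knockouts below it. Mmp13 was 2.36-fold lower at 10-dpf (log2 fold change -1.24, SE 0.23, adjusted p = 0.0222; 3 of 3 samples), and at 14-dpf the difference did not pass (log2 fold change -0.58, SE 0.48, adjusted p = 0.476). The change of the genotype difference from 10- to 14-dpf was 0.44, SE 0.53, adjusted p = 0.781, so the days were not shown to differ; without P-Apex1KO 14-dpf replicate 1 it was -0.0501. The 10-dpf call was lost without WT replicate 1 (-1.12, adjusted p = 0.0624), WT replicate 2 (-1.25, adjusted p = 0.0668), P-Apex1KO replicate 1 (-0.91, adjusted p = 0.111) or P-Apex1KO replicate 3 (-1.22, adjusted p = 0.0619), and with all 30 samples in 1 model (-1.30, adjusted p = 0.0589). Without P-Apex1KO replicate 1 of 14-dpf the 14-dpf difference was called (-1.09, adjusted p = 0.0262). On the early days Mmp13 was 164, 164, 144 and 221 CPM in WT and 39.3, 297, 159 and 294 CPM in the samples labelled P-Apex1KO at 3-dpf, and 652, 508, 482, 499 and 570.2 against 529, 422 and 429 CPM at 6-dpf. The 3-dpf knockout values reached from far below to above the controls, and at 6-dpf the ranges overlapped.

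Promoter sequences were looked up because members of a cluster on chromosome 9 moved in different directions and because FOS/JUN dimers (AP-1) and RUNX2 are textbook regulators of Mmp13. The table of RefSeq promoters used (build GRCm38.p6, an earlier build than the gene positions above) held 7 of the 10 genes, in 8 entries; Mmp2, Mmp9 and Mmp16 were not in that table. The 250 bases before each start were searched on both strands for the AP-1 letters TGANTCA and the RUNX letters ACCACA, which 6.75% and 14% of all 32851 entries hold, respectively. Of the 7 genes, 4 had an AP-1 match and 2 had a RUNX match. The Mmp13 window (chr9:7272264-7272513, plus strand) held both, with the RUNX match 118 bases and the AP-1 match 35 bases before the start. The Mmp14 window (chr14:54431348-54431597, plus strand) held the RUNX match 114 bases before the start. Both are shown, 5′ to 3′ with the matches in capitals, because they are the 2 with a RUNX match, and both genes were lower at 10-dpf. Mmp10, also lower at 10-dpf, had no RUNX match in its window. A match is a description of letters, and binding was not measured.
Mmp13: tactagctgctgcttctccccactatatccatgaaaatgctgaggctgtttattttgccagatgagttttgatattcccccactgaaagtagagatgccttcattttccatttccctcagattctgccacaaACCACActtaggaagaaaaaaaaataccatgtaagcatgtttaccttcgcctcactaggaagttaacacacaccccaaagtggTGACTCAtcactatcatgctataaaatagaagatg
Mmp14: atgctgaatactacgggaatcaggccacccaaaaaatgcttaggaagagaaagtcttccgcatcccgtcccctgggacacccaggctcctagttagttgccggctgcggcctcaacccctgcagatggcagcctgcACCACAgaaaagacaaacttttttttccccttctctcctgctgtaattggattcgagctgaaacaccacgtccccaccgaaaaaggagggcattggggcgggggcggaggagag

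Genes listed as hypertrophic chondrocyte markers do not single out that cell type, because Sp7, Alpl, Ibsp, Spp1 and Pth1r are expressed by osteoblasts too. At 3-dpf the 8 summed to a mean of 767 CPM in WT with Col10a1 (type X collagen) at 0.974 CPM, and Spp1 (osteopontin) was the most abundant in all 8 samples. In all samples of 10-dpf it was Col10a1. All 8 were lower in P-Apex1KO at 6-dpf, when Mmp13 was not. At 10-dpf 3 were lower, Pth1r (the parathyroid hormone receptor), Sp7 and Alpl, and Col10a1 was not called by edgeR (log2 fold change -0.57, SE 0.21, unadjusted p = 0.0281). At 14-dpf Pth1r and Sp7 were lower, and Col10a1 and Ihh (Indian hedgehog) were higher. These 14-dpf tests, adjusted for sex, rest on WT replicate 1, the control female, which had the lowest control sum of this list, 8927 CPM. The Col10a1 and Ihh calls of that day were lost with the replicate number as a block in place of sex. The summed level at 6-dpf was 6665, 9175, 7204, 8050.5 and 8118 CPM in WT and 2325, 1997 and 1247 CPM in P-Apex1KO. At 10-dpf the values were 23188, 20706, 23361 and 20695 CPM against 14328, 18516 and 12588 CPM. At 14-dpf the values were 8927, 13531, 13198 and 15233 CPM against 12143, 5221 and 8634 CPM. The genotypes were far apart at 6-dpf, closer but without overlap at 10-dpf, and overlapped at 14-dpf. At 14-dpf Spp1 was the most abundant of the list in all 4 WT samples and Col10a1 in all 3 P-Apex1KO samples. Col10a1 then had a mean of 2341 CPM in WT and 3528 CPM in P-Apex1KO, the opposite order to the sum. Col10a1 had a log2 fold change of -3.96 at 6-dpf, Ihh of -2.82 and Pth1r of -2.14; the Ihh call was lost without WT replicate 2 (-2.72, adjusted p = 0.0713), WT replicate 4 (-2.69, adjusted p = 0.0779) or P-Apex1KO replicate 2 (-3.05, adjusted p = 0.0641) and with no filter on low counts. The 10-dpf count was 0 without WT replicate 1 or P-Apex1KO replicate 1 and 1 without WT replicate 2. The 14-dpf counts were 2 lower and 0 higher without WT replicate 3, 2 and 1 without WT replicate 4, and 4 and 2 without P-Apex1KO replicate 1. None of the markers was at 0 in all samples of a group, and the part of any cell type in the Mmp13 difference was not tested.

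Mmp8 (ENSMUSG00000005800, chr9:7558457-7568487, plus strand), the neutrophil collagenase, was higher at 14-dpf, when Mmp9 was lower. It was then 53.0, 58.7, 66.9 and 71.7 CPM in WT against 119, 124 and 100.2 CPM in P-Apex1KO. All 3 knockout samples were above all 4 controls, and Mmp8 was 2.20-fold higher (log2 fold change 1.14, SE 0.17, adjusted p = 0.00620); the call was lost with all 30 samples in 1 model (1.01, adjusted p = 0.0608). The 10-dpf values were 51.2, 46.2, 105 and 107 CPM in WT against 115, 159 and 89.8 CPM in P-Apex1KO. WT replicates 3 and 4 lay among the knockouts, and the difference did not pass by edgeR (log2 fold change 0.66, SE 0.27, adjusted p = 0.203) but did by DESeq2 (0.66, adjusted p = 0.0464) and without P-Apex1KO replicate 3 (0.94, adjusted p = 0.0274). The change of the genotype difference from 10- to 14-dpf was 0.67, SE 0.34, adjusted p = 0.424. At 3-dpf Mmp8 ran from 71.7 to 146 CPM in WT and from 35.0 to 201 CPM in the samples labelled P-Apex1KO, and at 6-dpf from 106 to 159 and from 114 to 161 CPM.

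Neutrophil markers moved with Mmp8. Of 11 markers, with Ngp (neutrophilic granule protein) the most abundant in all samples of 14-dpf, 8 were higher in P-Apex1KO at 14-dpf, and 5 were without WT replicate 2 or without WT replicate 3. At 10-dpf edgeR called 0 of 11, where 11 had an unadjusted p under 0.05 and DESeq2 called 11 as higher; without P-Apex1KO replicate 3 edgeR called 11. The summed level at 10-dpf was 1476, 1299, 2714 and 2785 CPM in WT and 3734, 5280.02 and 2803 CPM in P-Apex1KO. The 14-dpf values were 1335, 1719, 1729.6 and 2054 CPM in WT and 3048, 3608 and 2799 CPM in P-Apex1KO. On both days all knockout samples were above all controls, by little at 10-dpf. At 3- and 6-dpf edgeR called 0 of the 11, 0 had an unadjusted p under 0.05 and DESeq2 called 0. Among the 3-dpf libraries the one labelled P-Apex1KO replicate 1 had the lowest sum of the day, 1129.58 CPM, as it had the lowest Mmp8. The log2 fold changes at 14-dpf were 1.33 for Ngp, 1.27 for S100a8, 1.48 for S100a9 and 1.45 for Ly6g, a surface protein that marks mouse neutrophils; the Ly6g call was lost without WT replicate 2 (1.45, adjusted p = 0.0588) or WT replicate 3 (1.45, adjusted p = 0.0688). With all 30 samples in 1 model, which ended the Mmp8 call, those of Ngp (1.03, adjusted p = 0.106), S100a8 (1.09, adjusted p = 0.0637), S100a9 (1.09, adjusted p = 0.0671) and Ly6g (1.25, adjusted p = 0.0697) were lost too. None of the markers was at 0 in all samples of a group, and the part of neutrophils in the Mmp8 difference was not tested.

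The membrane-type MMPs act at the cell surface. Mmp14 (ENSMUSG00000000957, chr14:54668878-54682821, plus strand) encodes MT1-MMP; it overlaps Gm56768 on the same strand in GENCODE M39. Its counts are uncertain for reads from the shared bases if the annotation used for counting also held Gm56768, which was not checked. At 10-dpf Mmp14 was 673, 772, 689 and 617 CPM in WT against 352, 481 and 429 CPM in P-Apex1KO. At 14-dpf it was 692, 829, 787 and 857 CPM in WT against 331, 186 and 346 CPM in P-Apex1KO. No knockout sample reached the lowest control on either day, and Mmp14 was 1.64-fold lower at 10-dpf (log2 fold change -0.71, SE 0.14, adjusted p = 0.0261) and 2.36-fold lower at 14-dpf (log2 fold change -1.24, SE 0.28, adjusted p = 0.0333), in 3 of 3 samples each time. The 10-dpf call was lost without WT replicate 1 (-0.71, adjusted p = 0.0839), WT replicate 2 (-0.65, adjusted p = 0.0716), P-Apex1KO replicate 1 (-0.53, adjusted p = 0.137) or P-Apex1KO replicate 3 (-0.71, adjusted p = 0.0693). The 14-dpf call was lost without WT replicate 2 (-1.24, adjusted p = 0.0740), 3 (-1.24, adjusted p = 0.0716) or 4 (-1.24, adjusted p = 0.0700) and with no filter on low counts (-1.24, adjusted p = 0.114). At 6-dpf it was 624, 616, 613, 914 and 757 CPM against 498, 753 and 389 CPM; 2 of the 3 knockouts were below all controls and the difference did not pass (log2 fold change -0.39, SE 0.22, adjusted p = 0.306). At 3-dpf the ranges overlapped (log2 fold change -0.12, adjusted p = 0.923).

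Mmp16 (ENSMUSG00000028226, chr4:17852844-18125390, plus strand), which encodes MT3-MMP, was the gene called on the most days. At 6-dpf it was 40.7, 28.3, 27.1, 27.8 and 29.5 CPM in WT against 13.3, 15.3 and 11.5 CPM in P-Apex1KO. At 10-dpf the values were 107, 92.3, 48.4 and 77.9 CPM against 41.1, 32.0 and 25.2 CPM. At 14-dpf the values were 155, 134, 136 and 139 CPM against 35.1, 31.1 and 23.4 CPM. The genotypes did not overlap on any of these days, with WT replicate 3 the closest control at 10-dpf and the widest separation at 14-dpf. Mmp16 was 2.19-fold lower at 6-dpf (log2 fold change -1.13, SE 0.17, adjusted p = 0.00411), 2.28-fold lower at 10-dpf (log2 fold change -1.19, SE 0.18, adjusted p = 0.0163) and 5.12-fold lower at 14-dpf (log2 fold change -2.36, SE 0.17, adjusted p = 5.96e-04), each in 3 of 3 samples. The 10-dpf call was lost without WT replicate 1 (-1.14, adjusted p = 0.0612), WT replicate 2 (-1.21, adjusted p = 0.0526) or P-Apex1KO replicate 1 (-1.15, adjusted p = 0.127). At 3-dpf it was 17.7, 19.2, 15.9 and 19.4 CPM in WT and 8.39, 9.39, 18.1 and 15.6 CPM in the samples labelled P-Apex1KO, of which 3 of 4 were below all controls (log2 fold change -0.46, SE 0.23, adjusted p = 0.845). The genotype difference changed from 3- to 6-dpf by -0.63, SE 0.29, adjusted p = 0.395 and from 10- to 14-dpf by -1.37, SE 0.28, adjusted p = 0.0595; neither passed by edgeR, and DESeq2 called the second (-1.35, adjusted p = 5.03e-04).

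Osteoblast markers were lower together with Mmp16 on the same 3 days. Of 8 markers, Col1a1 (type I collagen) being by far the most abundant, 6 were lower in P-Apex1KO at each of 6-, 10- and 14-dpf. Their summed level was 46083, 35532, 36456, 50516 and 43033 CPM in WT and 23564, 26778 and 17247 CPM in P-Apex1KO at 6-dpf. The 10-dpf values were 44945, 54425, 36503 and 36348 CPM against 23439.7, 22052 and 14285 CPM. The 14-dpf values were 94226, 81099, 66365 and 81000.1 CPM against 15209, 16207 and 16307 CPM. The genotypes did not overlap on these days, and the control sums were highest at 14-dpf. These sums are almost all Col1a1, so they describe that gene more than the list. In WT its mean was 15521 CPM of a mean sum of 15647 CPM at 3-dpf, and 78886 of 80672 CPM at 14-dpf. At 6-dpf the count was 4 to 6 with a sample left out. The Col1a1 call of that day (-0.88, adjusted p = 0.0498) was kept only without P-Apex1KO replicate 2 and lost in the other 7 such fits, without WT replicate 1 (-0.85, adjusted p = 0.0774), WT replicate 2 (-0.97, adjusted p = 0.0857), WT replicate 3 (-0.92, adjusted p = 0.0749), WT replicate 4 (-0.74, adjusted p = 0.157), WT replicate 5 (-0.86, adjusted p = 0.0799), P-Apex1KO replicate 1 (-0.94, adjusted p = 0.162) or P-Apex1KO replicate 3 (-0.74, adjusted p = 0.0918), and with DESeq2 size factors (-0.89, adjusted p = 0.0518). Dmp1 was lost at 6-dpf without P-Apex1KO replicate 1 (-0.53, adjusted p = 0.0818), and Dlx3 without WT replicate 4 (-1.36, adjusted p = 0.0503) or P-Apex1KO replicate 3 (-1.38, adjusted p = 0.0529). The 10-dpf count of 6 was 0 without P-Apex1KO replicate 1, 1 without WT replicate 1, and 2 without WT replicate 2 or without P-Apex1KO replicate 3. None of the markers was at 0 in all samples of a group, and the part of osteoblasts in the Mmp14 and Mmp16 differences was not tested.

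**Figure D4:**
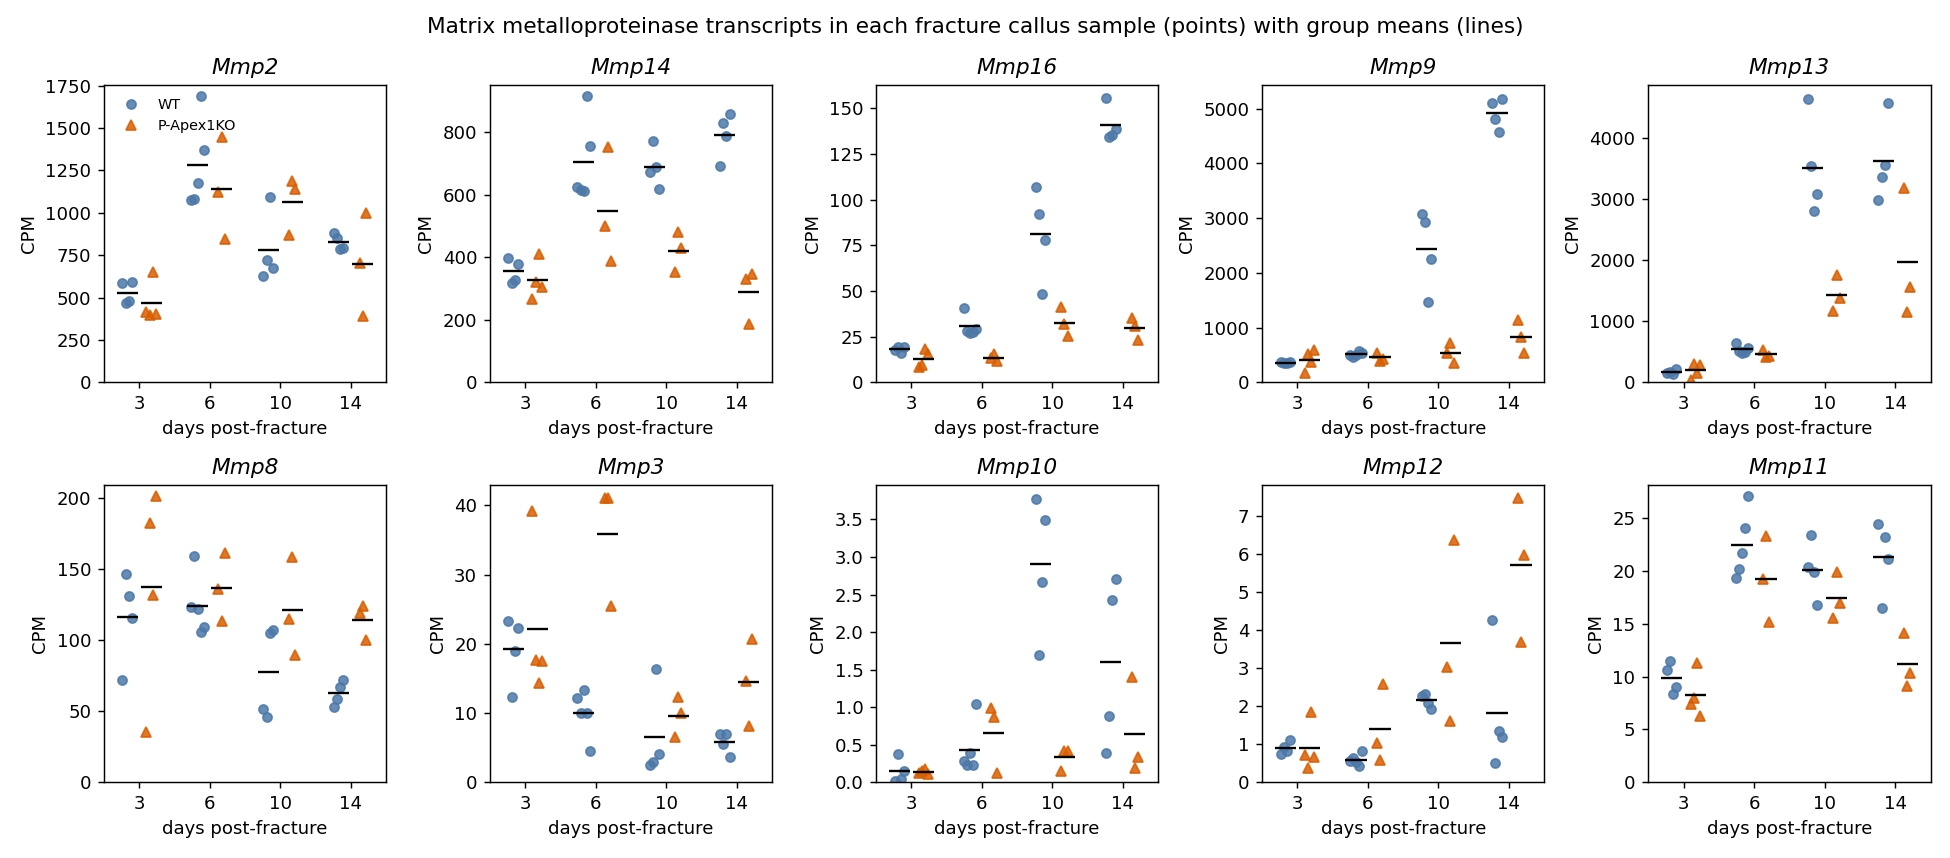
CPM of each of the 10 genes in every sample (points) with the group means as lines, by days post-fracture, for WT and P-Apex1KO. For Mmp16 the WT samples of 14-dpf lie between 134 and 155 CPM and the P-Apex1KO samples between 23.4 and 35.1 CPM, while for Mmp8 the order of the genotypes is the reverse, 53.0 to 71.7 against 100.2 to 124 CPM.

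The stromelysins have a broad range of matrix substrates and can activate other proMMPs. Mmp3 (ENSMUSG00000043613, chr9:7445822-7455975, plus strand), stromelysin-1, was the gene higher in P-Apex1KO at 6-dpf, where it was 12.2, 9.98, 13.4, 10.02 and 4.54 CPM in WT against 41.1, 41.1 and 25.5 CPM in P-Apex1KO. All 3 knockout samples exceeded all 5 controls, and Mmp3 was 3.69-fold higher (log2 fold change 1.88, SE 0.31, adjusted p = 0.00711). The call was lost without P-Apex1KO replicate 1 (1.76, adjusted p = 0.0572) and with no filter on low counts (1.88, adjusted p = 0.0604). At 3-dpf Mmp3 was 23.3, 12.3, 19.0 and 22.2 CPM in WT and 39.2, 17.6, 14.3 and 17.5 CPM in the samples labelled P-Apex1KO, with only P-Apex1KO replicate 1 above the controls (log2 fold change 0.04, SE 0.30, adjusted p = 0.990). This small difference was negative without P-Apex1KO replicate 1 (-0.28, adjusted p = 0.529), WT replicate 2 (-0.03, adjusted p = 0.996) or WT replicate 4 (-0.01, adjusted p = 0.999). The change of the genotype difference from 3- to 6-dpf was 1.67, SE 0.50, adjusted p = 0.152 by edgeR; it was called by DESeq2 (1.65, adjusted p = 0.0196) and without P-Apex1KO 3-dpf replicate 1 (2.08, adjusted p = 0.0217). At 10-dpf the values were 2.53, 2.92, 16.4 and 4.12 CPM against 6.51, 12.3 and 10.02 CPM, and WT replicate 3 was higher than any knockout (log2 fold change 0.55, SE 0.49, adjusted p = 0.553); without it Mmp3 was called as higher (1.36, adjusted p = 0.00566). At 14-dpf the values were 7.003, 5.52, 6.93 and 3.63 CPM against 14.6, 8.17 and 20.7 CPM, with no overlap. The test with sex did not call this difference (log2 fold change 1.08, SE 0.54, adjusted p = 0.249), but it was called without sex (1.37, adjusted p = 0.0144) and with all 30 samples, and sex, in 1 model (1.64, adjusted p = 0.0170).

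Mmp10 (ENSMUSG00000047562, chr9:7502353-7510241, plus strand), stromelysin-2, had the lowest level among those of the 10 genes that were called, and its difference at 10-dpf was the largest of theirs on the log2 scale. It was 3.77, 1.69, 2.67 and 3.50 CPM in WT, from 37 to 78 counts a sample, against 0.151, 0.422 and 0.421 CPM in P-Apex1KO, from 3 to 10 counts a sample. All 3 knockout samples were below all 4 controls, and Mmp10 was 8.98-fold lower (log2 fold change -3.17, SE 0.42, adjusted p = 0.0105). The call was lost without P-Apex1KO replicate 1 (-2.86, adjusted p = 0.0690). It could not be tried with at least 10 counts required in every sample. At 14-dpf it was 0.389, 0.881, 2.42 and 2.71 CPM in WT against 1.41, 0.192 and 0.333 CPM in P-Apex1KO. The groups overlapped, all 3 knockouts were below the control mean, and yet the fitted difference was positive (log2 fold change 0.80, SE 1.21, adjusted p = 0.714), since WT replicate 1, the control female, had the lowest control value. Without sex it was -1.22, adjusted p = 0.270, and without P-Apex1KO replicate 1 it was -0.51, adjusted p = 0.760. The genotype difference changed by 2.91, SE 1.16, adjusted p = 0.308 from 10- to 14-dpf, so the days were not shown to differ. At 3- and 6-dpf no sample exceeded 1.04 CPM. Mmp3 and Mmp10 lie in a cluster on chromosome 9 that also holds Mmp13, Mmp12 and Mmp8, and they differed in opposite directions on different days. The windows before their starts (chr9:7445572-7445821 and chr9:7502092-7502341, GRCm38.p6, plus strand) are shown for that contrast, with the AP-1 letters TGANTCA in capitals, 46 bases before the start in Mmp3 and 63 bases before it in Mmp10; the RUNX letters were found in neither.
Mmp3: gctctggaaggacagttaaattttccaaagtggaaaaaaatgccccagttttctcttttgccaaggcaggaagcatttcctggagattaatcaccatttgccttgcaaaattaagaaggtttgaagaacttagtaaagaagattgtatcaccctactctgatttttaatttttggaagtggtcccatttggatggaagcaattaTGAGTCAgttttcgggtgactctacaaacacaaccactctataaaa
Mmp10: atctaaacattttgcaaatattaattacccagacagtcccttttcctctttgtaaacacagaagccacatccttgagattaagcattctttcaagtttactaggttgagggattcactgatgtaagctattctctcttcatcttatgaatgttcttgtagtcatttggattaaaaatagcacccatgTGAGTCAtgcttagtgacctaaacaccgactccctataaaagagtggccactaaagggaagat

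Mmp11 (ENSMUSG00000000901, chr10:75759055-75772330, minus strand), stromelysin-3, which is activated inside the cell by furin, differed at 14-dpf. It was then 24.5, 16.5, 23.2 and 21.1 CPM in WT against 14.2, 9.09 and 10.3 CPM in P-Apex1KO. All 3 knockout samples were below all 4 controls, and Mmp11 was 2.15-fold lower (log2 fold change -1.10, SE 0.25, adjusted p = 0.0301). The call was lost without WT replicate 3 (-1.10, adjusted p = 0.0593), WT replicate 4 (-1.10, adjusted p = 0.0688) or P-Apex1KO replicate 3 (-1.05, adjusted p = 0.0593), and with scaling to library size alone (-0.83, adjusted p = 0.0763). At 10-dpf it was 20.4, 23.4, 19.9 and 16.7 CPM against 15.6, 19.9 and 16.9 CPM, which overlap (log2 fold change -0.18, SE 0.14, adjusted p = 0.496), and without P-Apex1KO replicate 1 the 10-dpf difference was 0.0029. The genotype difference changed by -0.84, SE 0.27, adjusted p = 0.214 from 10- to 14-dpf. On the early days it had log2 fold changes of -0.21 and -0.19, neither called.

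Mmp12 (ENSMUSG00000049723, chr9:7344381-7369499, plus strand), the macrophage elastase, did not pass on any day and was low throughout. At 14-dpf the values were 4.28, 0.510, 1.34 and 1.18 CPM in WT against 7.47, 3.70 and 5.99 CPM in P-Apex1KO. All 3 knockouts were above the control mean and WT replicate 1, the control female, lay between them, so the fitted difference was 0.45 with sex (SE 0.50, adjusted p = 0.606) and 1.69, adjusted p = 0.0609 without it. With all 30 samples in 1 model it was called (1.40, adjusted p = 0.0486). At 6- and 10-dpf 2 of 3 knockouts were above all controls, with log2 fold changes of 1.21 (adjusted p = 0.155) and 0.76 (adjusted p = 0.332). Macrophage markers, with Lyz2 the most abundant of 10, were higher for 8 genes at 6-dpf, 6 at 10-dpf and 6 at 14-dpf, where 2 were lower. Their summed level at 14-dpf was 1822, 1767, 1836 and 1854 CPM in WT and 2207, 2484 and 2228 CPM in P-Apex1KO, with all knockouts higher. The 6-dpf count was 5 without P-Apex1KO replicate 1, and the 10-dpf count was 0 without P-Apex1KO replicate 1 and 1 without WT replicate 1 or WT replicate 2. None of the 10 markers was at 0 in all samples of a group, and their part in the Mmp12 values was not tested.

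The second question was how the genes changed with time within a genotype, from 3- to 6-dpf and from 10- to 14-dpf. At 3-dpf the RNA came from tissue around the fracture and at 6-dpf from the callus as a whole, so tissue and time differ together in the first of these. In WT, 5 of 10 genes were higher at 6- than at 3-dpf, beside 15.4% of all genes tested: Mmp2 with a log2 change of 1.24 (SE 0.19, adjusted p = 1.87e-04), Mmp11 of 1.14 (SE 0.16, adjusted p = 9.64e-05), Mmp13 of 1.62 (SE 0.42, adjusted p = 0.0102), Mmp14 of 0.96 (SE 0.18, adjusted p = 9.22e-04) and Mmp16 of 0.70 (SE 0.19, adjusted p = 0.0125). By edgeR 0 were lower, beside 15.1%; Mmp3 had an unadjusted p under 0.05 (log2 change -0.92 (SE 0.34, adjusted p = 0.0546)), and DESeq2 called it, 1 of 10. It made 6 of 10 at that p, beside 40.7% of all genes. In P-Apex1KO, 3 of 10 were higher at 6-dpf, beside 7.1%: Mmp2 with 1.29 (SE 0.21, adjusted p = 0.00121), Mmp11 with 1.22 (SE 0.18, adjusted p = 5.96e-04) and Mmp14 with 0.75 (SE 0.20, adjusted p = 0.0219). At an unadjusted p under 0.05 there were 5, beside 28.4% of all genes. DESeq2 called 4, with Mmp10 added (2.10, adjusted p = 0.0429), and Mmp13 was called with all 30 samples in 1 model (1.23, adjusted p = 0.0371). None was lower by edgeR, beside 6.91%, with 0 at an unadjusted p under 0.05 and 0 by DESeq2. The genotype difference itself changed from 3- to 6-dpf in 0 of 10 genes by edgeR, beside 1.3% of all genes tested, with 2 at an unadjusted p under 0.05, beside 12.5%, and 1 by DESeq2. The Mmp16 change in WT was lost without WT 3-dpf replicate 3 (0.60, adjusted p = 0.0551) and with scaling to library size alone (0.47, adjusted p = 0.0624). The Mmp14 change in P-Apex1KO was lost without P-Apex1KO 3-dpf replicate 2 (0.73, adjusted p = 0.0566) or 4 (0.71, adjusted p = 0.0508) and without P-Apex1KO 6-dpf replicate 1 (0.80, adjusted p = 0.0526) or 2 (0.46, adjusted p = 0.187). It was also lost with no filter on low counts (0.74, adjusted p = 0.0733). Without P-Apex1KO 3-dpf replicate 1, further changes were called: Mmp3 (1.14, adjusted p = 0.0301) and Mmp13 (0.92, adjusted p = 0.0110) in P-Apex1KO, and Mmp3 (-0.94, adjusted p = 0.0162) and Mmp9 (0.47, adjusted p = 0.00645) in WT. Mmp3 in WT was also called with no sex term (-0.96, adjusted p = 0.0388), with scaling to library size alone (-1.14, adjusted p = 0.0183) and with at least 10 counts in every sample (-0.90, adjusted p = 0.0479). It was called too without WT 3-dpf replicate 2 (-1.08, adjusted p = 0.0457) and without WT 6-dpf replicate 3 (-1.03, adjusted p = 0.0402), and Mmp10 in P-Apex1KO without P-Apex1KO 6-dpf replicate 3 (2.53, adjusted p = 0.0262).

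From 10- to 14-dpf, 2 of 10 genes were higher in WT, beside 6.19% of all genes tested: Mmp9 with a log2 change of 1.11 (SE 0.28, adjusted p = 0.0223) and Mmp16 of 0.94 (SE 0.16, adjusted p = 0.00330). None was lower by edgeR, beside 4.92%, with 0 at an unadjusted p under 0.05 and 0 by DESeq2. The Mmp9 change was lost without WT 10-dpf replicate 3 (0.90, adjusted p = 0.0899) or 4 (1.15, adjusted p = 0.0572), without WT 14-dpf replicate 4 (1.06, adjusted p = 0.0549) and with no filter on low counts (1.12, adjusted p = 0.0793). In P-Apex1KO edgeR called 0 of 10 as lower, beside 0.228%, and 0 as higher, beside 0.0304%. Mmp11 was the 1 gene with an unadjusted p under 0.05 (log2 change -0.73 (SE 0.21, adjusted p = 0.141)), beside 14.3% of all genes, and DESeq2 called it as lower (-0.71, adjusted p = 0.0413). The genotype difference changed from 10- to 14-dpf in 0 of 10 genes by edgeR, beside 0.436%, with 3 at an unadjusted p under 0.05, beside 13.1%, and 1, Mmp16, by DESeq2. For Mmp9 this change was -0.69, SE 0.47, adjusted p = 0.579, and for Mmp14 -0.62, SE 0.30, adjusted p = 0.406.

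The family holds 13 further MMP genes, of which 7 had enough counts to be tested. At 14-dpf Mmp23 was lower (log2 fold change -1.12, SE 0.19, adjusted p = 0.0102; 3 of 3 samples below all controls) and Mmp25, the leukolysin of neutrophils, was higher (log2 fold change 0.83, SE 0.19, adjusted p = 0.0301; 3 of 3 above all controls). The Mmp25 call was lost without WT replicate 2 (0.83, adjusted p = 0.0514), 3 (0.82, adjusted p = 0.0626) or 4 (0.82, adjusted p = 0.0661) and with all 30 samples in 1 model (0.82, adjusted p = 0.0717). By edgeR 0 of the 7 were called at 3-, 6- and 10-dpf; 0, 1 and 4 had an unadjusted p under 0.05 on these days, and DESeq2 called 0, 0 and 2. Mmp15, Mmp17, Mmp19 and Mmp28 had a mean of at least 1 CPM and were not called by edgeR on any day; at 14-dpf their log2 fold changes were -0.87, -0.88, 0.48 and -0.37. Over the 7 genes at 14-dpf, 3 were lower and 1 was higher at an unadjusted p under 0.05, and DESeq2 called 2 as lower and 1 as higher. Mmp1a had 0 counts in all 30 samples. At 14-dpf 2 of the 7 were lower without P-Apex1KO replicate 1 or without P-Apex1KO replicate 3.

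Of the 6 inhibitor genes, Reck, a membrane-anchored inhibitor, was lower at 6-dpf (log2 fold change -0.79, SE 0.16, adjusted p = 0.0143; 3 of 3 samples), a call lost without WT replicate 4 (-0.76, adjusted p = 0.0561) and without P-Apex1KO replicate 1 (-0.78, adjusted p = 0.0755). No TIMP gene was called on any day by edgeR or by DESeq2. Timp1, Timp2, Timp3 and Timp4 had log2 fold changes of 0.21, 0.09, 0.42 and 0.96 at 10-dpf and of -0.40, -0.18, 0.60 and 1.23 at 14-dpf, and A2m of 0.25 and -0.48. Over the 6 inhibitors, 0, 1 and 1 had an unadjusted p under 0.05 at 3-, 10- and 14-dpf. Among the 6 genes of MMP activation, Plau (urokinase) was higher at 6-dpf (log2 fold change 0.40, SE 0.11, adjusted p = 0.0494; above the control mean in 3 of 3 samples). This call was lost without P-Apex1KO replicate 1 (0.47, adjusted p = 0.122), 2 (0.34, adjusted p = 0.0979) or 3 (0.42, adjusted p = 0.0668) and without WT replicate 2 (0.31, adjusted p = 0.145), 3 (0.39, adjusted p = 0.0977), 4 (0.46, adjusted p = 0.0795) or 5 (0.40, adjusted p = 0.0750), with DESeq2 size factors (0.39, adjusted p = 0.0549) and with all 30 samples in 1 model (0.37, adjusted p = 0.137). At 14-dpf Furin was lower (log2 fold change -0.69, SE 0.14, adjusted p = 0.0211; 3 of 3 samples), lost without WT replicate 2 (-0.69, adjusted p = 0.0582) or 4 (-0.69, adjusted p = 0.0538) and with scaling to library size alone (-0.43, adjusted p = 0.0577). Plaur, the urokinase receptor, was higher (log2 fold change 0.64, SE 0.14, adjusted p = 0.0242; above WT replicate 1 but below the other 3 controls in 3 of 3 samples), lost without WT replicate 2 (0.65, adjusted p = 0.0512), 3 (0.64, adjusted p = 0.0572) or 4 (0.64, adjusted p = 0.0587). Plaur was also not called with no sex term (0.06, adjusted p = 0.825) or with all 30 samples in 1 model (0.31, adjusted p = 0.0586). Plat had a log2 fold change of 0.03 at 14-dpf and was not called by edgeR on any day; at 3- and 10-dpf 0 activation genes were called by edgeR, 0 had an unadjusted p under 0.05 and DESeq2 called 0. At 14-dpf 2 activation genes were higher without P-Apex1KO replicate 2.

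**Figure D5:**
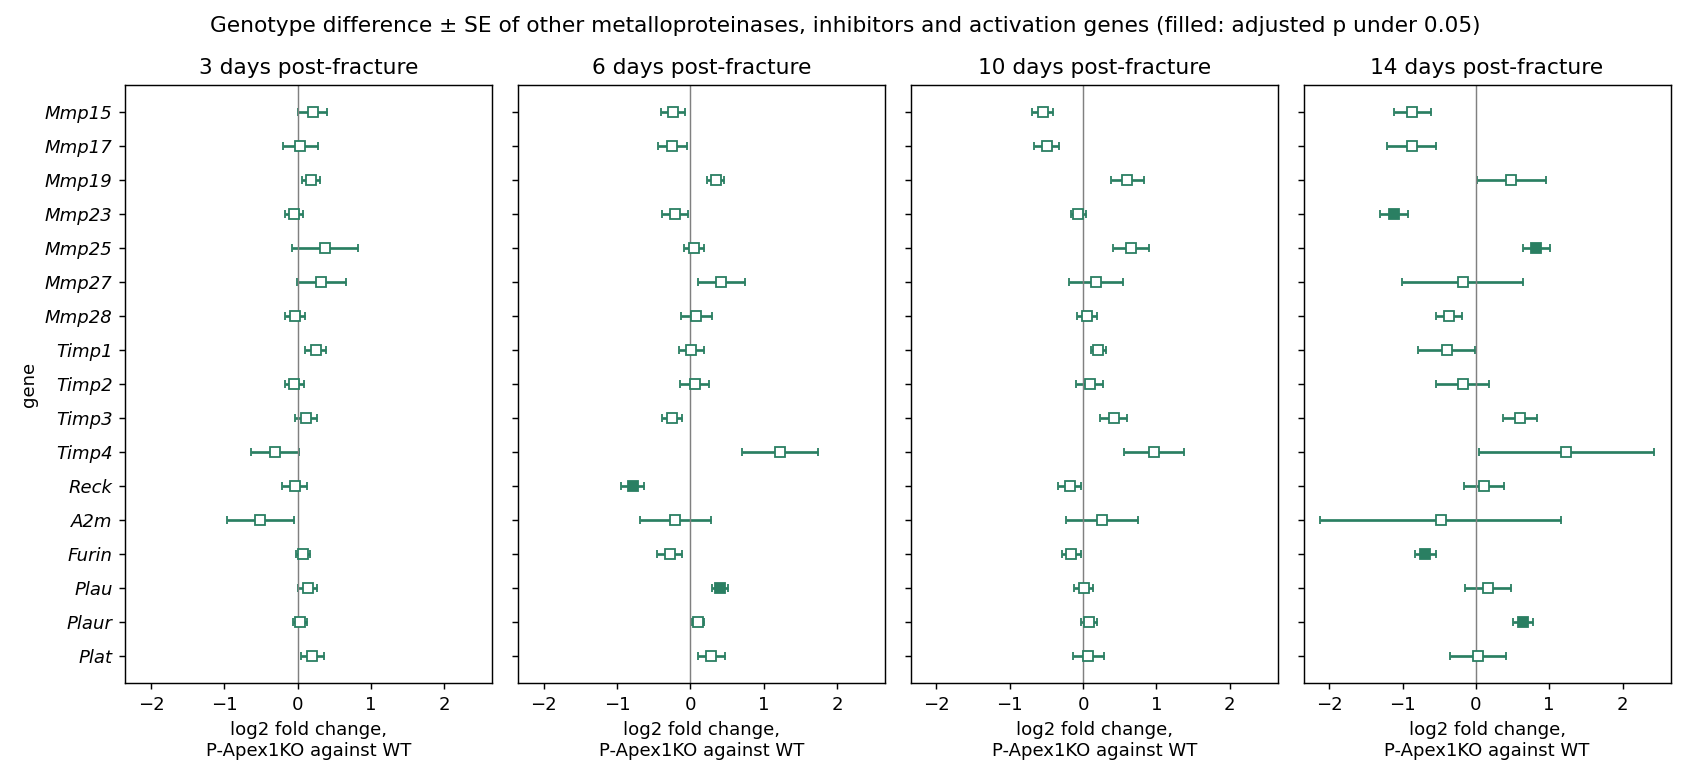
Log2 fold change with SE in P-Apex1KO against WT at each time point for other MMP genes, inhibitors and activation genes, filled where the adjusted p was under 0.05. The filled symbols are Reck and Plau at 6-dpf (-0.79 and 0.40) and Mmp23, Mmp25, Furin and Plaur at 14-dpf (-1.12, 0.83, -0.69 and 0.64).

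Of 13 genes encoding MMP substrates, 8 were lower in P-Apex1KO at 6-dpf, the largest differences being those of Col2a1 (-4.68), Col10a1 (-3.96), Col9a1 (-3.48) and Col11a1 (-2.45), collagens of cartilage. At 10-dpf 3 were lower, Col1a1 (-1.01), the glycoprotein gene Tnc (-0.83) and the basement membrane collagen Col4a1 (-0.57). At 14-dpf 4 were lower, with Col1a1 (-2.55) and Col1a2 (-2.35) first, and 4 were higher, with Col9a1 (3.15) and Acan (2.61) first. With no sex term neither Col9a1 (0.96, adjusted p = 0.235) nor Acan (0.66, adjusted p = 0.369) was called, and with all 30 samples in 1 model neither was (Col9a1 1.06, adjusted p = 0.172; Acan 0.66, adjusted p = 0.309). The 6-dpf count was 5 without WT replicate 2, WT replicate 4 or P-Apex1KO replicate 1. The 10-dpf count was 0 without WT replicate 1, WT replicate 2, P-Apex1KO replicate 1 or P-Apex1KO replicate 3, 1 without WT replicate 3, 8 without WT replicate 4 and 5 without P-Apex1KO replicate 2. Col1a1 was not called at 10-dpf without WT replicate 1 (-1.06, adjusted p = 0.109), WT replicate 2 (-0.96, adjusted p = 0.136), WT replicate 3 (-1.01, adjusted p = 0.0529), P-Apex1KO replicate 1 (-1.0011, adjusted p = 0.206) or P-Apex1KO replicate 3 (-0.88, adjusted p = 0.134), Tnc without WT replicate 1 (-0.77, adjusted p = 0.101), WT replicate 2 (-0.84, adjusted p = 0.0988), P-Apex1KO replicate 1 (-0.67, adjusted p = 0.214) or P-Apex1KO replicate 3 (-0.83, adjusted p = 0.0936), and Col4a1 without WT replicate 1 (-0.59, adjusted p = 0.0874), WT replicate 2 (-0.54, adjusted p = 0.0973), WT replicate 3 (-0.51, adjusted p = 0.0549), P-Apex1KO replicate 1 (-0.55, adjusted p = 0.159) or P-Apex1KO replicate 3 (-0.52, adjusted p = 0.0948). With no sex term Col1a1 (-1.09, adjusted p = 0.0638) and Tnc (-0.94, adjusted p = 0.0609) were not called at 10-dpf. At 3-dpf edgeR called 0 of the 13, 0 had an unadjusted p under 0.05 and DESeq2 called 0.

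Of 19 transcription factor genes with a described role in MMP expression, 2 were lower and 1 was higher at 6-dpf: Runx2 (log2 fold change -0.66, SE 0.09, adjusted p = 0.00248), Ets1 (-0.33) and, as the higher gene, Cebpb (1.00). Of all genes tested 5.61% were lower and 5.31% higher on that day, so both counts lay close to the background. At 10-dpf 5 were lower, beside 3.44% of all genes tested, with Runx2 (log2 fold change -0.87, SE 0.11, adjusted p = 0.00798), Etv4 (-0.77), Nfatc1 (-0.68), a factor of osteoclast differentiation, and Epas1 (-0.60) the largest. At 10-dpf Etv4 was not called without WT replicate 1 (-0.78, adjusted p = 0.123), WT replicate 2 (-0.82, adjusted p = 0.103), WT replicate 3 (-0.79, adjusted p = 0.0746), WT replicate 4 (-0.68, adjusted p = 0.0809), P-Apex1KO replicate 1 (-0.96, adjusted p = 0.139), P-Apex1KO replicate 2 (-0.74, adjusted p = 0.0978) or P-Apex1KO replicate 3 (-0.72, adjusted p = 0.125), and it was not called with no sex term, library size alone (-0.70, adjusted p = 0.0826), no filter on low counts (-0.77, adjusted p = 0.0503) or all 30 samples in 1 model (-0.84, adjusted p = 0.0747). Nfatc1 was not called at 10-dpf without WT replicate 1 (-0.65, adjusted p = 0.0897), WT replicate 2 (-0.66, adjusted p = 0.0852), P-Apex1KO replicate 1 (-0.52, adjusted p = 0.184) or P-Apex1KO replicate 3 (-0.61, adjusted p = 0.0739), and Epas1 without WT replicate 1 (-0.59, adjusted p = 0.0625), WT replicate 2 (-0.59, adjusted p = 0.0593) or P-Apex1KO replicate 1 (-0.56, adjusted p = 0.104). At 14-dpf Runx2 (log2 fold change -1.29, SE 0.23, adjusted p = 0.0147) and Nfatc1 (-0.88) were lower and Fosl1 (2.79), an AP-1 subunit, was higher. These were 2 and 1 of 19, beside 7.04% and 4.28% of all genes tested. Runx2 was below all controls in 3 of 3 knockout samples on each of these days, and at 10-dpf its call was lost without P-Apex1KO replicate 1 (-0.78, adjusted p = 0.0585). The Cebpb call was lost without P-Apex1KO replicate 1 (0.64, adjusted p = 0.0904). The Ets1 call was lost without that sample (-0.33, adjusted p = 0.153), P-Apex1KO replicate 3 (-0.34, adjusted p = 0.0519), or WT replicate 2 (-0.36, adjusted p = 0.0663), 3 (-0.35, adjusted p = 0.0573), 4 (-0.31, adjusted p = 0.0970) or 5 (-0.31, adjusted p = 0.0668), and with scaling to library size alone (-0.14, adjusted p = 0.226). The Fosl1 call was lost without WT replicate 2 (2.79, adjusted p = 0.0817), 3 (2.79, adjusted p = 0.0775) or 4 (2.79, adjusted p = 0.0861) and without P-Apex1KO replicate 1 (2.84, adjusted p = 0.0525) or 3 (2.44, adjusted p = 0.0520), with no sex term (0.39, adjusted p = 0.615) and with all 30 samples in 1 model (1.16, adjusted p = 0.0552). The 6-dpf counts were 3 lower and 2 higher without WT replicate 1 and 1 lower and 2 higher without P-Apex1KO replicate 3. The 10-dpf count of 5 was 0 without P-Apex1KO replicate 1, 1 without WT replicate 1 or WT replicate 2, 2 without P-Apex1KO replicate 3 and 3 without WT replicate 3 or P-Apex1KO replicate 2. The 14-dpf counts were 3 lower and 3 higher without P-Apex1KO replicate 2. At 3-dpf edgeR called 0 of the 19, 1 had an unadjusted p under 0.05 and DESeq2 called 0.

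The remaining cell type lists were counted in the same way. Of 10 chondrocyte markers, with Col2a1 the most abundant in WT at this time, 10 were lower at 6-dpf, when the summed level was 33472, 44996, 39333, 44832 and 59537 CPM in WT and 5420.3, 4388 and 2982 CPM in P-Apex1KO. At 10-dpf edgeR called 0, 2 had an unadjusted p under 0.05 and DESeq2 called 2; without WT replicate 4 edgeR called 5 as lower. At 14-dpf 9 were higher and 1 lower with sex in the model, although the sums overlapped, at 3099, 6939, 8099 and 6106 CPM in WT and 6650.4, 5422 and 5854 CPM in P-Apex1KO. WT replicate 1, the control female, had the lowest sum, and the Col2a1 difference was 1.84 with sex and -0.18 without it. Without WT replicate 2, 3 or 4 the counts at 14-dpf were 7 higher and 0 lower. Of 8 skeletal muscle markers, with Acta1 the most abundant until 6-dpf, 7 were higher at 6-dpf, 1 without WT replicate 2, 2 without WT replicate 4 and 4 without P-Apex1KO replicate 3. Their summed level at 6-dpf was 4784, 3848, 3814, 2944 and 2670.1 CPM in WT and 6212, 14272 and 8998 CPM in P-Apex1KO, all knockouts above all controls. On the other days edgeR called 0 of the 8. At 3-, 10- and 14-dpf 8, 8 and 0 had an unadjusted p under 0.05, and DESeq2 called 5, 5 and 1. Without P-Apex1KO replicate 2 at 10-dpf, and without P-Apex1KO replicate 1 at 14-dpf, edgeR called 8. The mean sums were 3694 CPM in WT and 7300 CPM in P-Apex1KO at 3-dpf, 1703 and 4523 at 10-dpf, and 1703 and 6450 at 14-dpf. The ranges overlapped on each of these days. The part of muscle tissue in the MMP differences was not tested.

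Lists of 6 markers each for endothelial cells, B cells, T and NK cells, periosteal mesenchyme and the erythroid lineage had at most 3 calls on any day by edgeR. Endothelial markers, led by Cdh5 or Pecam1 from 6-dpf, gave 1 lower gene at 10-dpf and 2 lower and 1 higher at 14-dpf. At 10-dpf that count was 0 without WT replicate 1, WT replicate 2 or P-Apex1KO replicate 1, 2 without WT replicate 3, WT replicate 4 or P-Apex1KO replicate 2, and 1 higher without P-Apex1KO replicate 3. The 14-dpf count was 1 lower and 1 higher without WT replicate 2, 3 or 4. At 6-dpf the count was 0, with 0 at an unadjusted p under 0.05 and 0 by DESeq2. It was 3 lower without P-Apex1KO replicate 2. T and NK cell markers, led by Cd4 from 6-dpf, gave 3 higher genes at 6-dpf, 2 at 10-dpf and 1 at 14-dpf. The 6-dpf count was 0 without WT replicate 2 or P-Apex1KO replicate 1 and 1 without WT replicate 4. The 10-dpf count was 0 without WT replicate 1 or P-Apex1KO replicate 1 and 1 without WT replicate 2 or P-Apex1KO replicate 3. The 14-dpf count was 0 without WT replicate 2, 3 or 4 or P-Apex1KO replicate 3 and 3 without P-Apex1KO replicate 1. Periosteal markers, led by Postn, gave 1 higher gene at 6-dpf, 1 lower at 10-dpf and 2 lower at 14-dpf. The first was lost without WT replicate 2 or 4, the second without WT replicate 1, 2 or 3 or P-Apex1KO replicate 1 or 3, with 2 higher genes without WT replicate 3 and 3 lower ones without WT replicate 4; at 14-dpf 4 were lower without P-Apex1KO replicate 2.

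B cell markers, led by Ebf1, gave 1 higher gene at 6-dpf, 0 without any of WT replicates 2 to 5 or P-Apex1KO replicate 3, 2 without WT replicate 1 and 4 without P-Apex1KO replicate 2. By edgeR 0 B cell markers were called at 10- and 14-dpf, where 2 and 5 had an unadjusted p under 0.05 and DESeq2 called 1 and 3; without P-Apex1KO replicate 2 edgeR called 5 at 14-dpf. Erythroid markers, led by Slc4a1, gave 3 higher genes at 14-dpf and 0 by edgeR at 6- and 10-dpf, where 1 and 0 had an unadjusted p under 0.05 and DESeq2 called 0, with 2 higher at 10-dpf without WT replicate 4. At 3-dpf edgeR called 0 genes of every cell type list; 8 muscle markers, 1 macrophage marker and 0 of the other lists had an unadjusted p under 0.05, and DESeq2 called 5 muscle markers, 1 macrophage marker and 0 others. None of the marker genes was at 0 in all samples of a group.

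Genes whose level followed that of each MMP most closely were ranked by Pearson's r of log2 CPM over the 30 samples among 13779 protein-coding genes outside the family with a mean of at least 1 CPM. The samples share time points and genotypes, so r was also computed on deviations from the group means, and both are descriptions. Mmp9 was followed by Ocstamp (0.98, 0.85 within groups), Arsb (0.98, 0.86 within groups) and Ckb (0.98, 0.77 within groups). Mmp2 was followed by Timp2 (0.97, 0.97 within groups), Dkk3 (0.93, 0.90 within groups) and Mras (0.93, 0.91 within groups), of which Timp2 encodes the inhibitor that takes part in pro-MMP2 activation by MMP14. Mmp8 was followed by Cd177 (0.97, 0.97 within groups), Ly6g (0.97, 0.96 within groups) and Ltf (0.97, 0.96 within groups), genes of neutrophils and their granules. Mmp13 was followed by Galnt3 (0.97, 0.87 within groups), Cadm1 (0.97, 0.73 within groups) and Hpgd (0.96, 0.77 within groups). Mmp14 was followed by Wipi1 (0.96, 0.93 within groups), Ptk7 (0.95, 0.91 within groups) and Bcar1 (0.94, 0.82 within groups). Genes close to Mmp16 included Kazald1 (0.98, 0.78 within groups) and Cdh2 (0.98, 0.90 within groups). Mmp3 was followed by Lyve1 (0.91, 0.83 within groups), Ly6a (0.90, 0.80 within groups) and Cadm3 (0.90, 0.79 within groups), whereas for Mmp11 they were Fbxl7 (0.94, 0.83 within groups), Kif7 (0.94, 0.65 within groups) and Mxra8 (0.93, 0.61 within groups). Mmp10 was followed by Tctn1 (0.84, 0.57 within groups), Epas1 (0.84, 0.39 within groups) and Depp1 (0.83, 0.62 within groups) and Mmp12 by Ankrd12 (0.83, 0.42 within groups), Zfp398 (0.83, 0.50 within groups) and Cdc37l1 (0.82, 0.46 within groups), the least close matches. Among the 45 pairs of the 10 genes themselves r was highest for Mmp9 and Mmp16 (0.93, 0.62 within groups), followed by Mmp11 with Mmp14 (0.86, 0.62 within groups), Mmp13 with Mmp16 (0.85, 0.41 within groups) and Mmp9 with Mmp13 (0.85, 0.79 within groups), while Mmp2 with Mmp14 had 0.69, and 0.83 within groups.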

How the data were processed

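The authors deposited raw counts per gene, made with STAR 2.7.0d on mm39 and featureCounts (uniquely mapped, reverse-stranded reads, Ensembl v104), from libraries depleted of ribosomal and beta globin RNA. Genotypes were compared at each time point with edgeR 4.0.16 (TMM scaling, low-count filter, quasi-likelihood F test, sex in the model, Benjamini-Hochberg over all genes tested; R 4.3.3), and changes with time in models of 3- and 6-dpf or of 10- and 14-dpf. Alternatives were DESeq2 1.42.0, other scalings, no filter, no sex term, all samples together, and each library left out. The code was tested on simulated data. CPM use 1 scaling over all samples; lengths are exons of GENCODE M39. Depth was 18334389 to 43111491 counts per sample. Members and lists were chosen with earlier results of these data known. Named are, by rule, the 10 members and Apex1; other MMP, inhibitor and activation genes that were called or had a mean of at least 1 CPM; up to 4 substrates and regulators with the largest called change; the most abundant marker of a list and up to 3 further; and up to 3 genes most alike each member.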

Additional observations from a re-analysis of the deposited data

Results flagged for a closer look

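Samples far from the others of their group were looked for in Apex1 and the 10 MMP genes. Of 55 groups of 4 or 5 samples examined, 5 had such a sample; chance alone flags about 1 in 20 groups. They were Mmp2 in P-Apex1KO 3-dpf replicate 3 (651 CPM), Mmp3 in P-Apex1KO 3-dpf replicate 1 (39.2 CPM) and in WT 10-dpf replicate 3 (16.4 CPM), Mmp10 in WT 6-dpf replicate 5 (1.04 CPM) and Mmp16 in WT 6-dpf replicate 1 (40.7 CPM), each the highest of its group. Whether these values are technical or biological was not tested.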

How the results depend on the processing

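The tests of Apex1, the 10 genes and the listed genes called were computed again. This was done under 8 alternatives with all samples and with each library left out in turn. The levels per kb, the likeness of genes and the promoter matches were not computed again. The 14-dpf genotype comparison without WT 14-dpf replicate 1 could not be fitted, because genotype and sex are then the same in its samples; the models of 10- and 14-dpf together could. The lower levels of Mmp16 at 6- and 14-dpf, of Mmp9 at 14-dpf and of Apex1 at 6-dpf kept their direction and their side of the threshold in all these fits. In the other called genotype differences of the 10 genes the direction was kept wherever the gene could be tested, and the threshold was crossed as given beside each result. With 3 to 5 animals in a group, adjusted p values near 0.05 over all genes tested move when any animal is left out. Mmp10 and Mmp12 had few counts in many samples, so depth limits what can be said of them; Mmp10 could not be tested at 3-dpf. Nor could Mmp10 be tested in any comparison with at least 10 counts required in every sample, because some samples of each had fewer. In the changes below, the cause was not tested, except that a fit with no sex term or with all samples together does not rest on the WT female at 14-dpf.

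With the DESeq2 Wald test, the number of all genes called was 85 at 3-dpf (0 by edgeR), 2187 at 10-dpf (1221 by edgeR), 718 for the change of the genotype difference from 3- to 6-dpf, 465 for that from 10- to 14-dpf and 550 for the change from 10- to 14-dpf in P-Apex1KO. Among the MMP genes it called 1 in each of these last 3 (0 by edgeR), and Mmp8 had a log2 change of -0.004 from 3- to 6-dpf in P-Apex1KO, -0.0038 with DESeq2 size factors. With library size alone, all genes called were 3594 at 6-dpf (2212 with TMM), 433 for the change of the genotype difference from 3- to 6-dpf and 8 for that from 10- to 14-dpf. Under it Mmp3 and Mmp12 had log2 fold changes of -0.0126 and -0.0409 at 3-dpf, and Mmp2, Mmp9 and Mmp13 of 0.0086, 0.0719 and 0.0305 at 6-dpf. The change of the genotype difference from 3- to 6-dpf was then 0.17 for Mmp8 and 0.0154 for Mmp14, the change in WT was -0.17 for Mmp8 from 3- to 6-dpf, and from 10- to 14-dpf it was -0.0143 for Mmp2 and -0.0322 for Mmp13. All of these reverse a sign of a difference that was not called.

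With no filter on low counts, all genes called were 4 at 3-dpf, 207 for the change of the genotype difference from 10- to 14-dpf and 217 for the change from 10- to 14-dpf in P-Apex1KO (51 with the filter). MMP genes called were then 1 at 6-dpf and 1 for the change from 10- to 14-dpf in WT (2 each with the filter), and Mmp8 had -0.0076 from 3- to 6-dpf in P-Apex1KO. With no sex term, all genes called were 750 at 10-dpf, 6849 at 14-dpf (2289 with sex) and 672 for the change from 10- to 14-dpf in P-Apex1KO. Mmp12 had -0.0016 at 3-dpf, Mmp10 -1.22 and Col2a1 -0.18 at 14-dpf, and Mmp8 -0.0680 from 10- to 14-dpf in P-Apex1KO. With all 30 samples in 1 model, all genes called were 38 at 3-dpf, 6188 at 14-dpf, 410 for the change of the genotype difference from 3- to 6-dpf and 507 from 10- to 14-dpf in P-Apex1KO. Mmp10 had -1.41 and Col2a1 -0.39 at 14-dpf, and Mmp2 -7e-04 for the change of the genotype difference from 3- to 6-dpf.

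Replicate numbers recur between groups, and were not taken as pairs in the main tests. Of 13 pairs of a WT and a P-Apex1KO sample with the same number and day, 5 had a correlation over 0.1, with r from -0.2543 to 0.3773, and 4 of 13 P-Apex1KO samples correlated best with their own number. Among these were replicates 1, 2 and 4 of 3-dpf, with r of 0.3773, 0.056 and 0.1138. Whether the samples of 3-dpf are paired cannot be told from these values. With the replicate number as a block in place of sex, all genes called were 1 at 3-dpf, 677 at 6-dpf, 90 for the change of the genotype difference from 3- to 6-dpf, 1621 from 3- to 6-dpf in P-Apex1KO and 656 from 10- to 14-dpf in P-Apex1KO. With this block Mmp12 had -0.20 and Mmp13 -0.11 at 3-dpf, Mmp2 0.0119 at 6-dpf and Mmp10 -0.95 at 14-dpf. The change of the genotype difference from 3- to 6-dpf was 0.0556 for Mmp8, the change from 10- to 14-dpf in WT was 0.0014 for Apex1 and 0.0583 for Mmp3, and in P-Apex1KO it was -0.0885 for Mmp8. The block also moved calls. Apex1 was not called at 10-dpf (-0.50, adjusted p = 0.140) and was at 14-dpf (-0.52, adjusted p = 0.0403), Mmp3 (1.10, adjusted p = 0.0282) and Mmp12 (1.85, adjusted p = 0.0413) were called at 14-dpf, and the change of Mmp14 from 3- to 6-dpf in P-Apex1KO was not (0.77, adjusted p = 0.0531). No other call of Apex1 or the 10 genes moved. Among other genes called by edgeR with sex, those not called with the block included Reck, Plau, Col1a1, Col1a2, Ets1, Ihh, Spp1 and Tnfrsf11a at 6-dpf. At 10-dpf they included Col1a1, Tnc and Etv4, and at 14-dpf Plaur, Col2a1, Col9a1, Col10a1, Acan, Ihh and Fosl1.

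Over the fits with 1 library left out, the MMP genes called ran from 1 to 2 at 6-dpf, 0 to 7 at 10-dpf and 3 to 6 at 14-dpf. They ran from 2 to 5 for the change from 3- to 6-dpf in P-Apex1KO, 0 to 1 for the change of the genotype difference over these days and 1 to 2 for the change from 10- to 14-dpf in WT. All genes called ran from 0 to 10 at 3-dpf, 890 to 2359 at 6-dpf, 42 to 1827 at 10-dpf and 1206 to 3773 at 14-dpf. They ran from 104 to 450 and 2 to 206 for the changes of the genotype difference (3- to 6-dpf and 10- to 14-dpf), 1223 to 3258 and 0 to 252 for the changes in P-Apex1KO, and 1162 to 2760 from 10- to 14-dpf in WT. Log2 fold changes whose sign differed between these fits were those of Mmp3 (-0.28 to 0.15), Mmp9 (-0.0220 to 0.39), Mmp12 (-0.65 to 0.33) and Mmp13 (-0.11 to 0.39) at 3-dpf, Mmp11 at 10-dpf (-0.29 to 0.0029) and Mmp10 at 14-dpf (-0.51 to 1.22). For the change of the genotype difference from 3- to 6-dpf they were those of Mmp2 (-0.19 to 0.30), Mmp8 (-0.38 to 0.19), Mmp10 (-0.11 to 1.13) and Mmp11 (-0.14 to 0.26), and from 10- to 14-dpf those of Mmp12 (-0.30 to 1.80) and Mmp13 (-0.0501 to 0.72). Within genotypes they were those of Mmp8 in WT (-0.12 to 0.19) and of Mmp8 (-0.31 to 0.26), Mmp9 (-0.11 to 0.36), Mmp12 (-0.27 to 1.28) and Mmp16 (-0.0800 to 0.26) in P-Apex1KO from 3- to 6-dpf. From 10- to 14-dpf they were those of Mmp2 (-0.14 to 0.25), Mmp3 (-0.75 to 0.75), Mmp12 (-1.12 to 0.0343) and Mmp13 (-0.14 to 0.19) in WT and of Mmp12 (-0.52 to 0.86) and Mmp13 (-0.0367 to 0.74) in P-Apex1KO.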
